A study of Mus musculus with 6 samples.

Results

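Transcripts of 9 cytokine receptor genes were examined in sorted haematopoietic stem cells of mice carrying the ETV6-RUNX1 genotype: Csf2rb, Csf2rb2, Csf2ra, Il3ra, Csf3r, Il6st, Ifngr1, Ifnar1 and Il2rg. They were picked by symbol, each matched a single row, and they are 9 of the 55471 gene IDs in the deposited table. Every library carried the same genotype. The 3 uninduced libraries came from mice with no treatment listed and the 3 induced libraries from mice given Dox food for 2 weeks, which switches on the fusion of ETV6 and RUNX1 (a transcript of childhood B-cell precursor leukaemia). Cells were sorted as Lin- Kit+ Sca1+ CD48- CD150+. The age of the mice, the promoter that drives the fusion, and whether the 3 libraries of a group came from separate mice are not given in the labels used here, so p-values measure only the spread between these libraries. A library exposed to the drug but lacking the fusion was not among those analysed, and effects of the drug and of the fusion cannot be told apart.

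Cytokine receptors are surface proteins that have no enzyme of their own and signal through Janus kinases (JAKs) bound to their inner tails. A ligand brings the receptor chains together, the kinases phosphorylate STAT transcription factors, and these enter the nucleus and switch on genes, among them the SOCS inhibitors that damp the receptor. Most receptors pair a ligand-specific alpha chain with a signalling chain that several receptors share. Csf2rb encodes the common beta chain used by the receptors for GM-CSF, IL-3 and IL-5, Csf2rb2 encodes a second beta chain that mice use for IL-3, and Csf2ra and Il3ra encode the alpha chains for GM-CSF and IL-3. Il6st encodes gp130, the signalling chain of the IL-6 family, and Il2rg the common gamma chain of IL-2, IL-4, IL-7, IL-9, IL-15 and IL-21 receptors. Csf3r encodes the G-CSF receptor, which works as a homodimer, and Ifngr1 and Ifnar1 encode ligand-binding chains of the interferon-gamma and type I interferon receptors. In haematopoietic stem cells, G-CSF is known as a mobilising cytokine and interferons are known to push quiescent cells into cycle.

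The pair of beta chain genes is shown first, because reads of one can be assigned to the other. Csf2rb (ENSMUSG00000071713) lies at chr15:78325752-78353847 on the plus strand and Csf2rb2 (ENSMUSG00000071714) at chr15:78282507-78305721 on the minus strand (GRCm38, GENCODE M21), 20030 bases apart. Their longest annotated coding sequences hold 2691 and 2637 bases and were identical at 95.3% of 2629 aligned bases, with 242 bases as the longest unbroken match. Of all 100-base windows of the Csf2rb coding sequence (reads had 100 cycles from each end, per the labels' protocols), 11.03% occurred unchanged in Csf2rb2. The first 120 coding bases of each follow, with the 4 differing bases in capitals.
Csf2rb: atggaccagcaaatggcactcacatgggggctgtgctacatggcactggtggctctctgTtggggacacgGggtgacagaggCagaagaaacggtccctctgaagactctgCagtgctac
Csf2rb2: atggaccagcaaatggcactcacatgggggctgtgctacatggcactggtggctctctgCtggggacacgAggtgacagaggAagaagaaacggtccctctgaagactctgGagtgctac
A read or read pair that covers no differing base could come from either gene, so the separate values of the pair are uncertain and their sum is given beside them. The sum is not free of this either, since TPM is corrected for length. The genes have 7277 and 4740 exonic bases merged over all their transcripts, which need not be the lengths used for the deposited values.

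All 12 stem cell markers on the list used (among them Procr, Ly6a, Kit, Slamf1, Hlf, Mecom, Mllt3, Hoxb5 and Fgd5) averaged at least 1 TPM (transcripts per 1e6, a share of the library corrected for gene length); 4 of them rose and 3 fell on deposited TPM, where 1.29% of all genes rose and 10.2% fell, and 5 rose and 1 fell after median-of-ratios scaling, while Cd48, which the sort excludes, was at 0 to 3.02 TPM. The other 2 markers on the list of CD48-positive or multipotent progenitors were Flt3, at 3.20 to 5.30 TPM, and Cd34, at 55.9, 43.9 and 48.8 TPM in uninduced and 61.5, 69.3 and 83.7 TPM in induced replicates (log2 change 0.52, limma adjusted p 0.1096; 0.91 and 0.0205 after median-of-ratios scaling). The 3 summed to 49.1 to 62.9 TPM in uninduced and 67.1 to 86.9 TPM in induced libraries, without overlap, nearly all of it Cd34; its part in the receptor values was not tested. Of 8 T and NK cell markers 6, and of 7 B cell markers 5, were listed at 0 in every library. The B cell markers summed to 4.35 to 9.86 TPM in uninduced and 3.11 to 3.855 TPM in induced libraries, nearly all of it Cd79b. After median-of-ratios scaling these sums overlapped, at 3.62 to 7.79 and 3.75 to 4.32 units. Cd79b passed on neither scale (limma adjusted p 0.197 and 0.512), and its part in the receptor values was not tested. The summed level of 15 granulocyte and monocyte markers was 293 to 364 TPM in uninduced and 286 to 321 TPM in induced libraries, that of 7 mast cell and basophil markers 105 to 166 and 98.3 to 119 TPM (nearly all of it Gata2, a gene that stem cells express too), that of 6 megakaryocyte and platelet markers 102 to 135 and 118.5 to 129 TPM (Ppbp and Pf4 called higher, Gp9 lower), and that of 7 erythroid markers 52.0 to 58.4 and 386 to 449 TPM, with 5 of the 7 called higher. The part of the erythroid and platelet transcripts in the receptor changes was not tested. TPM keeps no sequencing depth, so the depth of each library is unknown and no counting interval can be given. TPM is also a share: nuclear protein-coding genes took 26.6 to 32.9% of it in uninduced and 20.5 to 23.2% in induced libraries, and the median log2 change over the 13470 genes tested was -0.35. For that reason the changes of the 9 receptor genes are given on the deposited scale and, beside it, after median-of-ratios scaling, which divides each library by the median ratio of its genes to their geometric mean over libraries and brings that median to -0.0029. On the scaled values the megakaryocyte and platelet sum no longer overlapped, at 84.97 to 106 and 136 to 143 units, and neither did that of the stem cell markers, at 483 to 554 and 701 to 759. Which scale is nearer to transcripts per cell was not tested.

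On the deposited scale none of the 9 receptor genes passed an adjusted p of 0.05 in limma, against 11.5% of all tested genes, and 3 of the 9 (Csf2rb, Il3ra and Csf3r) had an unadjusted p under 0.05, where 27.9% of all genes did, and all 3 were higher, as were 3.73% of all genes at that p. Every induced library lay above every uninduced library for 5 of the 9 genes (Csf2rb, Csf2rb2, Il3ra, Csf3r and Ifngr1), an order found for 4.83% of all tested genes. Every induced library lay below for 1 gene, Il2rg, against 28.2% of all genes. The median log2 change of the 9 was 0.60, where that of all genes was -0.35. After median-of-ratios scaling 3 of the 9 rose, Csf2rb, Csf3r and Ifngr1, and none fell; 6.04% of all genes were called there, 2.84% higher and 3.21% lower. On the deposited scale 174 genes were called higher and 1375 lower, and on the scaled values 382 and 432. Quantile normalization, which gives all libraries one distribution, called the same 3 receptor genes, beside 2.78% of all genes called higher. On the median-of-ratios values the same 5 genes were higher without overlap, where 13.4% of all genes were, and Il2rg overlapped. These genes were chosen with earlier results of these data known, so the shares of all genes are a background and not a test of the set. In bulk RNA, a change in the number of cells that carry a transcript and a change in transcript per cell cannot be told apart.

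**Figure D1:**
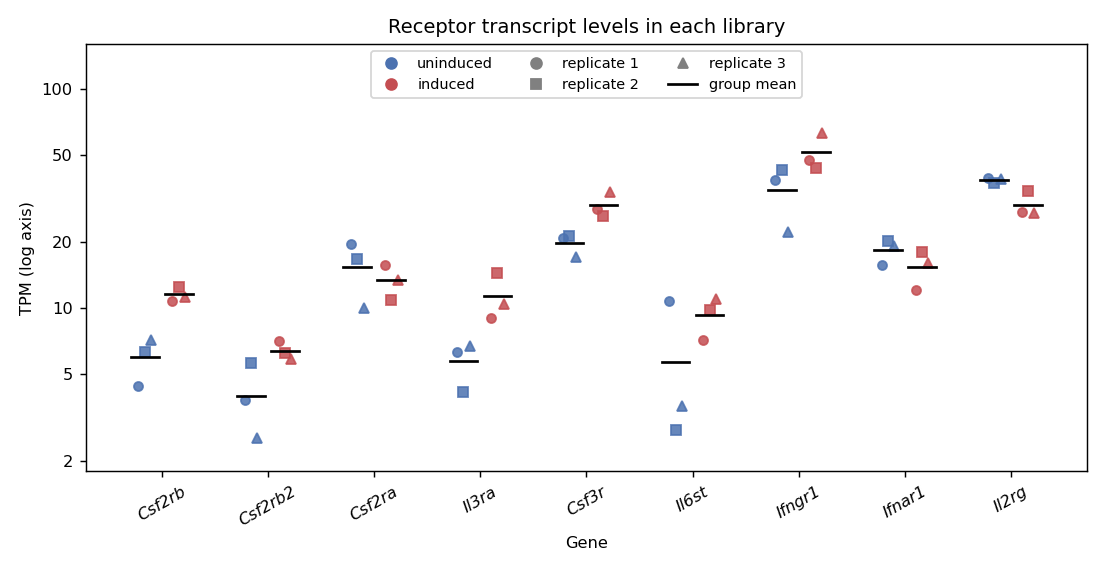
TPM (log axis) of each receptor gene in the 3 uninduced (blue) and 3 induced (red) libraries; marker shapes give the replicate number and bars the group means. Induced libraries lie above uninduced ones for Csf2rb, Csf2rb2, Il3ra, Csf3r and Ifngr1 and below for Il2rg.

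**Figure D2:**
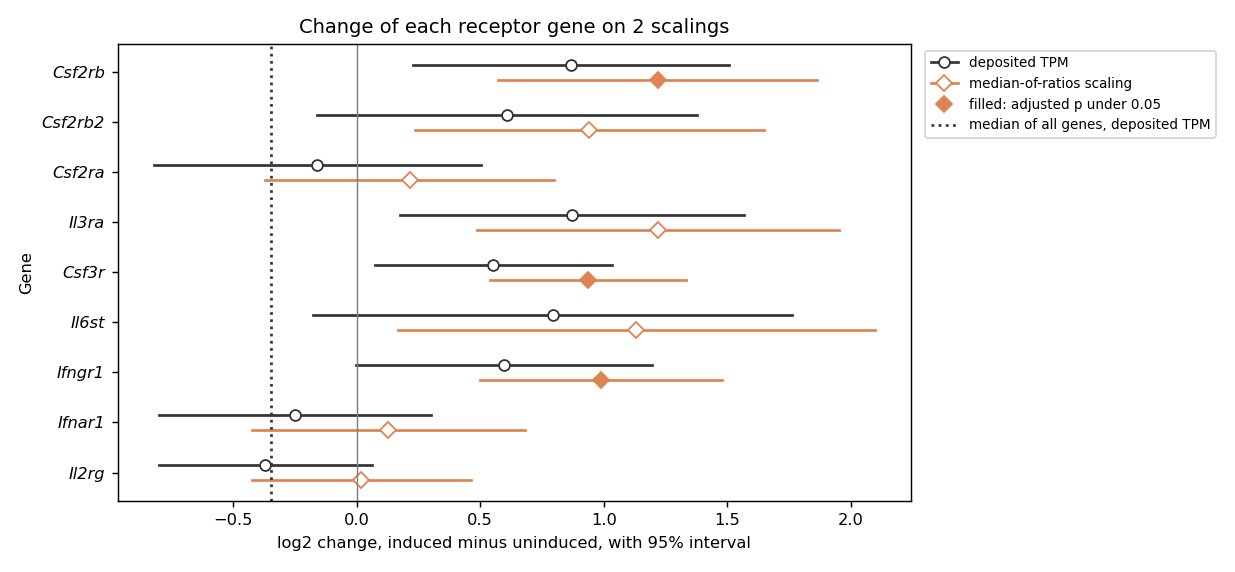
Log2 change of each receptor gene, induced minus uninduced, with its 95% interval from limma, on deposited TPM (circles) and after median-of-ratios scaling (diamonds, filled at an adjusted p under 0.05); the dotted line is the median of all tested genes, -0.35. Csf2rb, Csf3r and Ifngr1 are filled, and Csf2ra, Ifnar1 and Il2rg change sign between the scales.

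Among the receptors of GM-CSF and IL-3, both beta chains and the IL-3 alpha chain were higher in every induced library, while the GM-CSF alpha chain was not. Csf2rb was at 4.39, 6.31 and 7.18 TPM in uninduced and 10.8, 12.5 and 11.3 TPM in induced replicates 1 to 3. All 3 induced values lie above the highest uninduced value, and the means differed by 1.94 times (5.96 ± 1.43 and 11.5 ± 0.887 TPM, SD, n = 3 each). The change on the log2(TPM + 1) scale was 0.87 (SE 0.29, 95% interval 0.23 to 1.51, limma adjusted p 0.0799). After median-of-ratios scaling it was 1.22 (SE 0.29, limma adjusted p 0.0413), a call that was lost when any library was left out (adjusted p 0.0549 to 0.140). The microRNA gene Mir7676-2, which overlaps Csf2rb on the same strand, was at 0.247 TPM or less. Mast cells and basophils carry receptors of this family. Of their 7 markers Fcer1a and Prss34 were listed at 0, and without Gata2, which stem cells also express, the others summed to 0.837 to 4.12 TPM in uninduced and 0.464 to 3.16 TPM in induced libraries. The granulocyte and monocyte sum overlapped on deposited TPM. On the scaled values it was 271 to 287 units in uninduced and 336 to 359 in induced libraries, without overlap. The part of these marker transcripts in the Csf2rb values was not tested.

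Csf2rb2 was lower than its paralog, at 3.81, 5.61 and 2.55 TPM in uninduced and 7.07, 6.21 and 5.87 TPM in induced replicates. The groups were separated only narrowly, by 5.61 against 5.87 TPM. Its log2 change was 0.61 (SE 0.35, limma adjusted p 0.285) and 0.94 after median-of-ratios scaling (limma adjusted p 0.118), so it passed on neither scale. Summed over the pair, the level was 8.20, 11.9 and 9.73 TPM in uninduced and 17.9, 18.7 and 17.1 TPM in induced replicates. The sum was 0.80 higher on the log2(TPM + 1) scale (1.17 after median-of-ratios scaling), and the two-sided exact permutation test gave p = 0.1, which is the lowest value possible with 3 libraries a side. Since each gene of the pair was already higher in every induced library, this p was fixed in advance and adds no support. Csf2rb2 made up 46.4, 47.1 and 26.2% of the pair in uninduced and 39.6, 33.2 and 34.2% in induced libraries. These shares overlapped, with a difference of -4.24 percentage points (exact two-sided permutation p 0.7), which was -11.1 without uninduced replicate 3 and -0.66 without uninduced replicate 2.

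Il3ra (ENSMUSG00000068758, chr14:14346275-14356011, plus strand) was at 6.34, 4.14 and 6.71 TPM in uninduced and 9.03, 14.5 and 10.5 TPM in induced replicates. The means, 5.73 ± 1.39 and 11.3 ± 2.82 TPM (SD, n = 3 each), differed by 1.98 times without overlap. Its log2 change was 0.87 (SE 0.31, limma adjusted p 0.101), and 1.22 after median-of-ratios scaling (limma adjusted p 0.0633). It passed only after rescaling to nuclear protein-coding genes (1.38, limma adjusted p 0.0460), where 4.12% of all genes were called higher. An antisense gene across it, Gm48860, was listed at 0 in all libraries.

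Csf2ra (ENSMUSG00000059326, chr19:61223957-61228429, minus strand), the GM-CSF alpha chain, was at 19.6, 16.7 and 10.1 TPM in uninduced and 15.8, 10.9 and 13.4 TPM in induced replicates. The groups overlapped, and uninduced replicate 3 was below all the induced values. The log2 change was -0.16 (95% interval -0.82 to 0.50, limma adjusted p 0.765) and 0.21 after median-of-ratios scaling (-0.37 to 0.80, limma adjusted p 0.688). An interval this wide holds a fall or a rise of moderate size.

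Ratios of transcripts within a library do not depend on how the library is scaled, and were therefore set beside the changes; the 12 pairs of genes were chosen after the values had been seen and were not tested. Csf2rb stood at 0.224, 0.379 and 0.714 of Csf2ra in uninduced and 0.685, 1.15 and 0.839 in induced replicates, so that the groups met only at uninduced replicate 3 and induced replicate 1. Il3ra to Csf2ra showed the same near-separation, with 0.323, 0.248 and 0.667 in uninduced and 0.573, 1.32 and 0.778 in induced replicates. Csf2rb to Il3ra was close to even in both groups, at 1.10 ± 0.417 and 1.05 ± 0.168 (SD, n = 3 each).

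**Figure D3:**
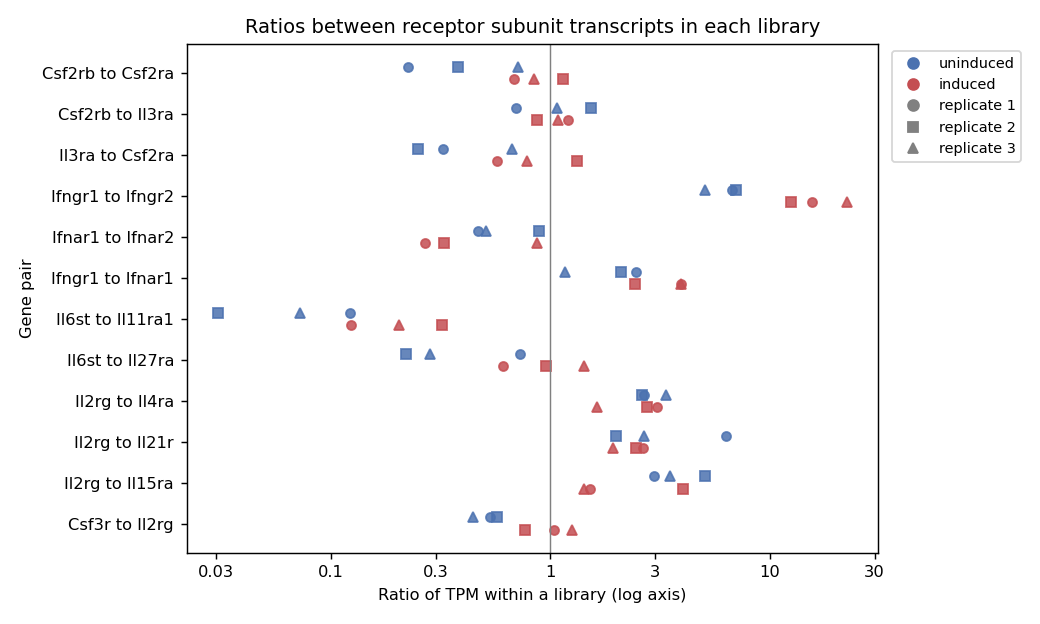
Ratio of TPM between 2 receptor genes within each library (log axis), for uninduced (blue) and induced (red) libraries. The groups are apart for Ifngr1 to Ifngr2, Il6st to Il11ra1 and Csf3r to Il2rg, and overlap for the other 9 pairs.

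The G-CSF receptor was higher in every induced library. Csf3r (ENSMUSG00000028859, chr4:126024550-126044440, plus strand) was at 20.8, 21.3 and 17.2 TPM in uninduced and 28.4, 26.2 and 33.8 TPM in induced replicates. The lowest induced value lies above the highest uninduced one, and the means were 19.8 ± 2.26 and 29.5 ± 3.92 TPM (SD, n = 3 each), 1.49 times apart. The log2 change was 0.55 (SE 0.22, limma adjusted p 0.128). After median-of-ratios scaling the replicates of each group drew closer together, to 16.8 ± 0.554 and 33.1 ± 2.31 scaled units (SD, n = 3 each), and the change was 0.94 (SE 0.18, limma adjusted p 0.0179). On that scale it also passed without uninduced replicate 1 or 2 and did not pass without any of the other 4 libraries (adjusted p 0.0591 to 0.0707). Relative to Il2rg in the same library, Csf3r was at 0.532, 0.571 and 0.443 in uninduced and 1.04, 0.765 and 1.25 in induced replicates, with no overlap. Granulocytes and monocytes carry much of this receptor. Ly6g, a granulocyte marker, was at 0.166 TPM or less, whereas S100a9 (35.6 to 85.2 TPM), S100a8 (14.1 to 36.8 TPM) and Ngp (17.7 to 34.98 TPM) were well above it, and S100a9 and Ngp were lower in each induced library without passing. Of the 15 granulocyte and monocyte markers, Prtn3 was called higher and Camp lower on deposited TPM, where the summed level overlapped as given above. After median-of-ratios scaling, the scale on which Csf3r passed, Prtn3 (log2 change 1.51, limma adjusted p 0.00463) and Lyz2 (0.84, 0.0136) were called higher and Camp was not called (-1.02, 0.1002). Their sum was then 271 to 287 scaled units in uninduced and 336 to 359 in induced libraries, without overlap. The part of these transcripts in the Csf3r values was not tested.

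The signalling chain of the IL-6 family varied widely between uninduced replicates (5.70 ± 4.37 TPM, SD, n = 3). Il6st (ENSMUSG00000021756, chr13:112464070-112510086, plus strand) was at 10.7, 2.79 and 3.59 TPM in uninduced and 7.18, 9.85 and 10.99 TPM in induced replicates. Uninduced replicate 1 alone reached the induced range, and the other two uninduced libraries were below all induced ones. The log2 change was 0.79 (SE 0.43, limma adjusted p 0.269) and 1.13 after median-of-ratios scaling (limma adjusted p 0.163). Without uninduced replicate 1 it was 1.29 on the deposited scale (limma adjusted p 0.0687) and 1.59 on the other (0.0503), and without uninduced replicate 2 it was 0.48 (0.543) and 0.78 (0.343). The chains that bind ligand beside gp130 were uneven in level. Il11ra1, the IL-11 chain, was at 30.9 to 91.4 TPM and Il27ra, the IL-27 chain, at 7.72 to 14.8 TPM, whereas Il6ra, the IL-6 chain, was at 0.862 to 2.25 TPM, Lifr at 0 to 1.09 TPM, and Osmr and Cntfr were listed at 0. Il6st to Il11ra1 was 0.122, 0.0306 and 0.0721 in uninduced and 0.124, 0.319 and 0.203 in induced replicates, and the groups were separated only by 0.122 against 0.124.

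Of the interferon receptor genes studied, Ifngr1 was higher in each induced library and Ifnar1 was not, and neither passed on the deposited scale. Ifngr1 (ENSMUSG00000020009, chr10:19591949-19610229, plus strand) was at 38.5, 42.7 and 22.1 TPM in uninduced and 47.2, 43.7 and 63.0 TPM in induced replicates. The separation was narrow, 42.7 against 43.7 TPM, and the lowest uninduced library is replicate 3. The log2 change was 0.60 (SE 0.27, limma adjusted p 0.182), 0.31 without uninduced replicate 3. After median-of-ratios scaling it was 0.99 (SE 0.22, limma adjusted p 0.0325), and on that scale it kept an adjusted p under 0.05 only without uninduced replicate 2 (0.0464), the other 5 omissions giving 0.0554 to 0.113. Its partner Ifngr2, the chain that recruits JAK2, was at 5.73, 6.10 and 4.38 TPM in uninduced and 3.04, 3.51 and 2.81 TPM in induced replicates, lower in each induced library (log2 change -0.63, limma adjusted p 0.245). After median-of-ratios scaling its groups overlapped (-0.30, limma adjusted p 0.621). Ifngr1 to Ifngr2 was 6.72, 7.00 and 5.06 in uninduced and 15.6, 12.5 and 22.4 in induced replicates. The lowest induced ratio was above the highest uninduced one. Ifngr1 to Ifnar1 was 2.461, 2.105 and 1.159 in uninduced and 3.916, 2.429 and 3.921 in induced replicates, and these groups overlapped.

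Ifnar1 (ENSMUSG00000022967, chr16:91485238-91507441, plus strand) was at 15.7, 20.3 and 19.1 TPM in uninduced and 12.1, 18.0 and 16.1 TPM in induced replicates, with overlapping groups. Its log2 change was -0.25 (95% interval -0.80 to 0.30, limma adjusted p 0.548) and 0.13 after median-of-ratios scaling (limma adjusted p 0.816). Ifnar2, the other chain of this receptor, was at 33.7, 23.0 and 37.7 TPM in uninduced and 44.8, 55.3 and 18.5 TPM in induced replicates. Induced replicate 3 held the lowest Ifnar2 value of all libraries and induced replicate 2 the highest, so this chain gave no order between the groups.

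Ifnar1 sits in a run of class II cytokine receptor genes on chromosome 16: from Ifnar2 (chr16:91372783-91405589) through Il10rb (chr16:91406164-91425834) and Ifnar1 to Ifngr2 (chr16:91547072-91565623) they span 192841 bases. Il10rb, a chain of the receptors for IL-10 and for type III interferons, was at 14.2, 12.2 and 6.68 TPM in uninduced and 25.9, 20.3 and 19.2 TPM in induced replicates. Its log2 change was 0.97 (limma adjusted p 0.0657), short of the threshold, and under median-of-ratios scaling 1.35 (limma adjusted p 0.0235). Gm21970, an annotated gene that overlaps both Ifnar2 and Il10rb on their strand, was at 1.81 TPM in uninduced replicate 1 and listed at 0 elsewhere. The 4 neighbours therefore had no common direction: Il10rb was higher and Ifngr2 lower in each induced library on the deposited scale, and Ifnar1 and Ifnar2 overlapped.

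The common gamma chain had the highest mean level of the receptors in uninduced cells, with a range that overlapped that of Ifngr1, and was the only gene of the 9 that was lower in each induced library. Il2rg (ENSMUSG00000031304, chrX:101264378-101268255, minus strand) was at 39.0, 37.3 and 38.7 TPM in uninduced and 27.4, 34.3 and 27.1 TPM in induced replicates. The means were 38.4 ± 0.907 TPM in uninduced and 29.6 ± 4.05 TPM in induced libraries (SD, n = 3 each). The log2 change was -0.37 (SE 0.19, 95% interval -0.80 to 0.06, limma adjusted p 0.245), close to the median of all genes, and it was 0.02 after median-of-ratios scaling (95% interval -0.43 to 0.46). Chains that pair with it were present in part. Il4ra was at 8.97 to 16.6 TPM, Il21r at 6.17 to 18.8 TPM and Il15ra at 7.41 to 19.0 TPM, while Il2ra, Il2rb and Il7r were listed at 0 in all libraries and Il9r was at 0.232 TPM or less. Jak3, the kinase that binds the gamma chain, was at 25.8, 35.2 and 30.5 TPM in uninduced and 36.2, 34.2 and 34.5 TPM in induced replicates, with overlapping groups. T and NK cells carry much gamma chain, and their 8 markers summed to 5.84 to 16.4 TPM in uninduced and 0.253 to 0.445 TPM in induced libraries. Nearly all of this was Nkg7, at 6.21, 15.8 and 5.84 TPM in uninduced and listed at 0 in induced libraries, while Cd3d, Cd3e, Cd3g, Cd2, Ncr1 and Trbc2 were at 0 throughout; its part in the Il2rg values was not tested. Gm20489, which overlaps Il2rg on the same strand, was at 0.188 TPM or less.

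By level, the order in uninduced cells was Il2rg (38.4 TPM), Ifngr1 (34.4), Csf3r (19.8), Ifnar1 (18.3), Csf2ra (15.5), Csf2rb (5.96), Il3ra (5.73), Il6st (5.70) and Csf2rb2 (3.99). Replicate ranges of neighbours in this order were apart only between Ifngr1 and Csf3r and between Csf2ra and Csf2rb. Among the 4 lowest genes the ranges of neighbours thus overlapped, although Csf2rb2 was below Csf2rb in each of the 3 uninduced libraries. In induced cells Ifngr1 (51.3 TPM) and Il2rg (29.6) changed places, and the other 7 kept their rank. There, neighbours were apart between Ifngr1 and Il2rg, between Csf3r and Ifnar1, and between Il6st and Csf2rb2. Among all tested genes the mean level of Ifngr1 stood at percentile 89.1 and that of Csf2rb2 at percentile 34.3.

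Upstream sequence from RefSeq (GRCm38.p6), present for 8 of the 9 genes, is shown for 3 genes that were higher in every induced library and for Il2rg, which was lower. Each run holds the bases before the annotated start, up to 250, ending before the first base of the gene in GENCODE as well. Capitals mark a match to a RUNX motif (TGTGGT), an ETS motif (GGAAGT), a STAT motif known as GAS (TTCNNNGAA), a GATA motif (AGATAA) or the interferon-stimulated response element on either strand. RUNX1 and ETV6, the parents of the fusion, belong to the RUNX and ETS families.
Csf3r, chr4:126024409-126024549, plus strand: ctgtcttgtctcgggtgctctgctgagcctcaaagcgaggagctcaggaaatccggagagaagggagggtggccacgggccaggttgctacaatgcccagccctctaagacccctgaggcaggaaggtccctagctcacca
Ifngr1, chr10:19591699-19591948, plus strand: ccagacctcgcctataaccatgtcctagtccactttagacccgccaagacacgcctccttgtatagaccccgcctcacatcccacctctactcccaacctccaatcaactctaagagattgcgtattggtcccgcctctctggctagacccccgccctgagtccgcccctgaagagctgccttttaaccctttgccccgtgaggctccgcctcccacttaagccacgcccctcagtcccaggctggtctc
Csf2rb2, chr15:78305722-78305971, minus strand: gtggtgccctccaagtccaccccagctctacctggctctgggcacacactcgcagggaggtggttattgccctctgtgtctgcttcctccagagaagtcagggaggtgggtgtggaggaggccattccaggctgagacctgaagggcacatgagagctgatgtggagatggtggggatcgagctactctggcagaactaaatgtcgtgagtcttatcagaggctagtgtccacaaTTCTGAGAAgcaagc
Il2rg, chrX:101268256-101268505, minus strand: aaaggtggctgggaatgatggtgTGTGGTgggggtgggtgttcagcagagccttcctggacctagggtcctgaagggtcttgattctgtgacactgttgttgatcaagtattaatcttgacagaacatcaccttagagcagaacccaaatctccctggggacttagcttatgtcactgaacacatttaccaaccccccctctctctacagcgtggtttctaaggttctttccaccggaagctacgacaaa
In the 250 bases before the RefSeq start, the RUNX motif was found in Il2rg only, 1 of the 8, against 14.0% of 32851 mouse promoters searched in the same way. The ETS motif was found in Il3ra and Ifnar1, against 19.7% of promoters, and GAS in Csf2rb2, against 7.02%. The Il3ra match, 139 bases before the RefSeq start, lies inside the gene as GENCODE annotates it, since 220 of its 250 bases do. GATA, searched only as AGATAA (9.99% of promoters), and the interferon-stimulated response element (2.98%) had no match in any of the 8. Other forms of the GATA site were not searched. A match is a string of letters and not a bound site.

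Of 22 ligands of these receptors, 13 were listed at 0 in all libraries, among them Csf2, Il3, Csf3, Il6, Ifng and Ifnb1. The 4 ligands tested were Il4, Il15, Il27 and Osm, and none passed on the deposited scale, where 11.5% of all genes did. Osm, a ligand of gp130 receptors, was lower in each induced library, at 3.82, 3.99 and 5.29 TPM in uninduced and 1.68, 1.41 and 3.15 TPM in induced replicates (log2 change -0.83, limma adjusted p 0.187). On the scaled values its groups overlapped (-0.54, limma adjusted p 0.4455). Il15, a gamma chain cytokine, was higher in each induced library, at 7.76, 7.25 and 8.38 TPM in uninduced and 14.1, 10.5 and 17.6 TPM in induced replicates (log2 change 0.75, limma adjusted p 0.112), and with median-of-ratios scaling it passed (1.11, limma adjusted p 0.0386). It was the only call among the 4 on that scale, where 2.84% of all genes were called higher.

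Of the 12 JAK, STAT and Irf9 genes, all tested, none passed on the deposited scale, where 11.5% of all genes did. Their median log2 change was 0.17 beside -0.35 for all genes. Jak1, which serves gp130, gamma chain and interferon receptors, was at 80.0, 87.3 and 74.3 TPM in uninduced and 96.1, 89.0 and 102 TPM in induced replicates. Tyk2, the kinase bound by Ifnar1, was at 6.25, 7.04 and 8.83 TPM in uninduced and 14.0, 9.93 and 15.5 TPM in induced replicates. Both kinases were higher in each induced library without passing on the deposited scale (limma adjusted p 0.350 and 0.122), and both passed after median-of-ratios scaling (limma adjusted p 0.0191 and 0.0488), as 2 of the 12 on a scale where 2.84% of all genes were called higher. Stat5a, a STAT factor downstream of the beta chains, went the other way on deposited TPM, at 36.9, 38.9 and 33.4 TPM in uninduced and 27.1, 26.7 and 27.6 TPM in induced replicates (log2 change -0.41, limma adjusted p 0.189; -0.02 after scaling). Jak2, the kinase of the beta chains, overlapped between the groups at 19.0 to 27.0 TPM.

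Of 17 feedback inhibitors 1 rose on the deposited scale, where 1.29% of all genes did. This was Socs2, a STAT5-induced inhibitor, from 24.3, 15.3 and 34.3 TPM to 59.5, 44.3 and 63.7 TPM (log2 change 1.20, limma adjusted p 0.0277, and 1.59 and 0.0211 under median-of-ratios scaling). After that scaling 2 of the 17 rose, Socs2 and Socs3, where 2.84% of all genes did. On the deposited scale Socs2 kept its call without uninduced replicate 3 (limma adjusted p 0.0165) and lost it without each of the other 5 libraries (0.0564 to 0.0887). The call was also lost with no variance trend (0.0797) and with all genes kept in the test regardless of level (0.1036). On the scaled values Socs2 passed in 2 of 6 fits with a library left out (limma adjusted p 0.01325 to 0.0753). Of 25 STAT-responsive targets tested, Bcl3, Socs2 and Cd274 rose and Ccnd1, Ccnd2 and Myc fell, where 1.29% of all genes rose and 10.2% fell. After median-of-ratios scaling, where 2.84% of all genes rose and 3.21% fell, 5 of the targets rose and 2 fell: Pim1 and Socs3 were called higher there (limma adjusted p 0.0331 and 0.0445) and Ccnd1 was not called. Bcl3, an IkB family protein, went from 3.49, 3.64 and 5.59 TPM to 11.9, 9.82 and 12.5 TPM (log2 change 1.26, limma adjusted p 0.0273; 1.60 and 0.0173 scaled). Ccnd1, which encodes cyclin D1, went from 17.0, 13.6 and 10.3 TPM to 6.49, 2.92 and 3.00 TPM (log2 change -1.55, limma adjusted p 0.0227), a call lost after median-of-ratios scaling (-1.20, limma adjusted p 0.0745). Myc had a log2 change of -1.46 (limma adjusted p 0.0120; -1.08 and 0.0408 scaled), and Cd274 and Ccnd2, named here after their values were seen, of 1.13 and -1.08 (limma adjusted p 0.0413 and 0.00537), or 1.51 and -0.69 scaled (limma adjusted p 0.0133 and 0.0248). When each library was left out in turn on the deposited scale, Bcl3 passed in 1 of 6 fits (limma adjusted p 0.0281 to 0.0905), Ccnd1 in 2 of 6 (0.0244 to 0.0862) and Myc in 5 of 6 (0.00855 to 0.0558). Without the expression filter none of the 3 passed (limma adjusted p 0.062, 0.0782 and 0.0622). On the scaled values Bcl3 passed in 1 of 6 (limma adjusted p 0.0227 to 0.0674), Ccnd1 in 0 of 6 (0.0531 to 0.195) and Myc in 1 of 6 (0.0262 to 0.123).

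Of 24 other receptors of stem and progenitor cell cytokines, 16 were tested, and 3 fell and none rose on deposited TPM, where 10.2% of all genes fell. After median-of-ratios scaling 2 rose, Il10rb and Crlf2 (a chain of the TSLP receptor), and 2 fell, where 2.84% of all genes were called higher and 3.21% lower. Crlf2 was at 21.1, 38.8 and 19.7 TPM in uninduced and 32.15, 45.8 and 55.1 TPM in induced replicates, with overlapping groups. Its log2 change was 0.75 on deposited TPM (limma adjusted p 0.1335) and 1.14 scaled (limma adjusted p 0.0415). Il17ra, the IL-17 receptor, fell from 12.1, 17.8 and 9.96 TPM to 2.95, 1.27 and 3.38 TPM (log2 change -2.03, limma adjusted p 0.00899). Il17ra also passed under median-of-ratios scaling (limma adjusted p 0.0225). Leaving out each library in turn kept its call in 6 of 6 fits on the deposited scale, but in only 1 of 6 on the scaled values (limma adjusted p 0.0489 to 0.0786). Kit, the stem cell factor receptor on which the cells were sorted, fell by 0.81 in log2 of deposited values (limma adjusted p 0.0354; 2 of 6 fits with a library left out). It did not pass without the expression filter (0.1078), without the variance trend (0.1213) or on the scaled values (-0.41, limma adjusted p 0.220). Among the 8 tested partner chains of the 9 receptors none passed on either scale, where 11.5% (deposited) and 6.04% (scaled) of all genes did. Of 10 tested transcription factors known to act on such receptor genes, Gfi1, a repressor in stem and myeloid cells, rose from 3.88, 3.45 and 2.16 TPM to 12.5, 13.6 and 12.5 TPM (log2 change 1.76, limma adjusted p 0.00710; 2.09 and 0.00453 scaled), and it passed without each library in turn on both scales. Gfi1 was the only call among the 10 on deposited TPM, where 1.29% of all genes were called higher. After median-of-ratios scaling 2 of the 10 were called, Gfi1 and Irf8, a myeloid and lymphoid transcription factor. The share of all genes called higher on that scale was 2.84%. Irf8 was at 0.592, 2.38 and 2.99 TPM in uninduced and 7.37, 7.02 and 5.42 TPM in induced replicates (log2 change 1.44, limma adjusted p 0.0547; 1.72 and 0.0461 scaled). Spi1, which encodes PU.1, an activator of Csf3r and Csf2ra, was higher in each induced library, at 20.4, 36.2 and 31.8 against 40.4, 40.4 and 40.5 TPM, without passing (log2 change 0.48, limma adjusted p 0.217; 0.87 and 0.0634 scaled).

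**Figure D4:**
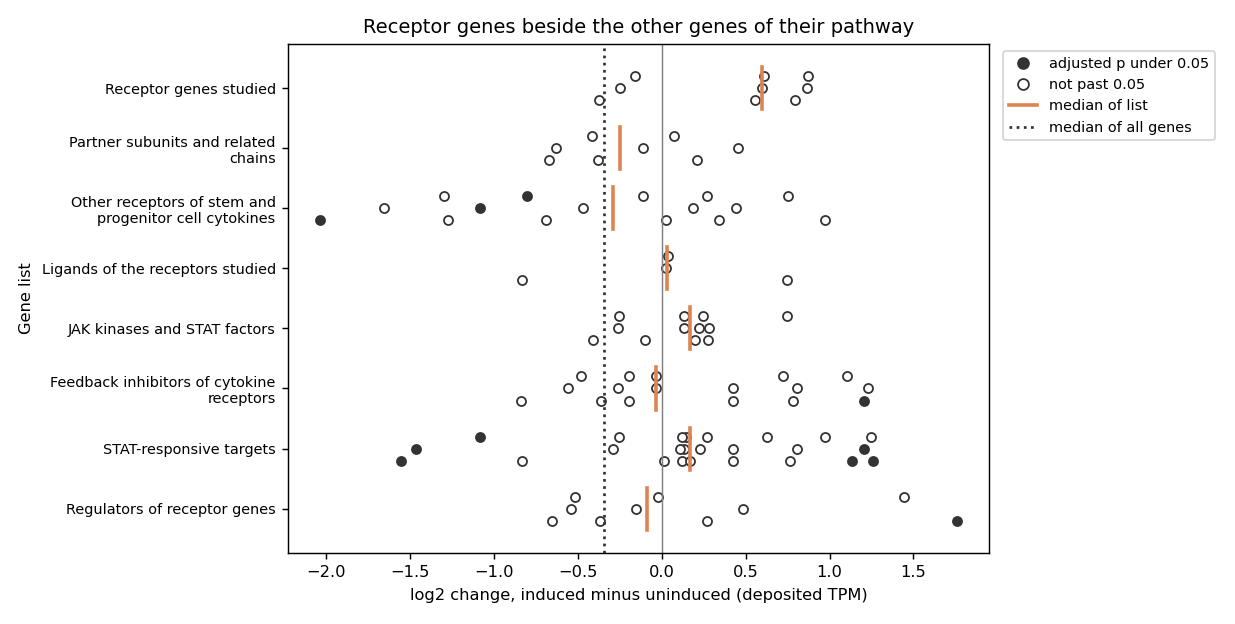
Log2 change (induced minus uninduced, deposited TPM) of the 9 receptor genes and of the tested genes of 7 pathway lists; filled points have an adjusted p under 0.05, orange bars are list medians, and the dotted line is the median of all tested genes. The median of the 9 receptors, 0.60, lies to the right of the 7 other medians, which run from -0.29 to 0.17.

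**Figure D5:**
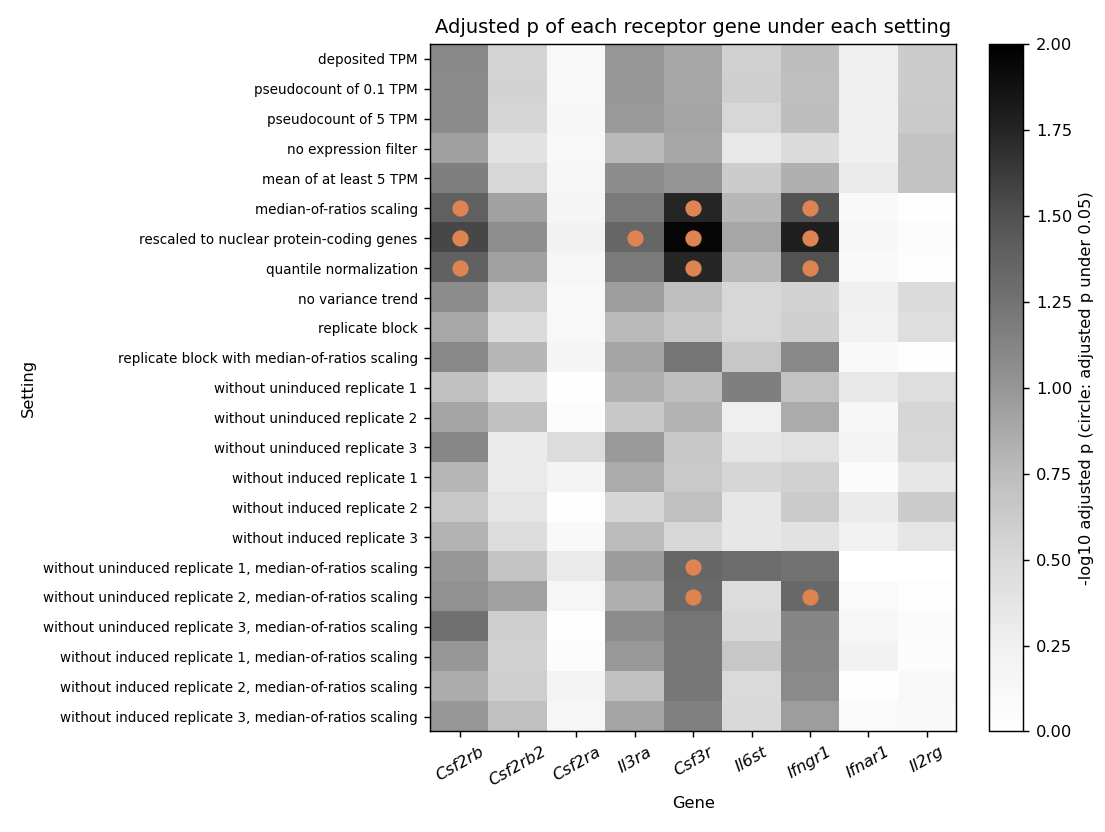
Adjusted p of each receptor gene (columns) under each setting (lines), darker for smaller values, with a circle at an adjusted p under 0.05. Circles appear only in settings that rescale the libraries: 3 genes with median-of-ratios scaling, 3 with quantile normalization, 4 after rescaling to nuclear protein-coding genes, and 0 to 2 where a library was left out as well.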

How the data were processed

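Per the submitters' processing notes, bcl2fastq, HISAT2, StringTie, DESeq2 and the build GRCm38 were used; versions, roles, annotation release and strand setting are not given in the sources used here. The authors deposited TPM in a single table (60496 lines, 5025 repeating a gene ID) with GC content in percent per gene, as deposited, which was not used. Values were summed per gene ID. The 13470 genes averaging 1 TPM or more were tested by limma 3.58.1 (R 4.3.3) after a log2(TPM + 1) transform (variance trend, two-sided, Benjamini-Hochberg over all tested genes, threshold 0.05). Fold changes on that scale understate changes of low genes. In simulated data for these 13470 genes, changes were planted only in genes above about 5 TPM. There, 92% of genes changed by 2 log2 units and 33% of those changed by 1 were recovered. Recovery of lower genes was not measured, and the simulated data held no shift common to all genes. The genes and lists were chosen with earlier results of these data known. All 9 receptor genes are given; of each list, up to 4 genes past the threshold without group overlap and with the largest change. Other genes given with values (partner chains, Il10rb, Il15, Jak1, Jak2, Jak3, Tyk2, Stat5a, Spi1, Irf8, Osm, Crlf2, Pim1, Socs3, Cd274, Ccnd2 and single markers) were chosen after their values were seen. Genes of like pattern were to be named only for a receptor gene past the threshold on deposited TPM, so none is. Alternatives were other pseudocounts (0.1 and 5 TPM), filters, scalings, no variance trend, a block for replicate number, and omission of each library. Marker sums on scaled values were added after seeing the data. Locations are from GENCODE M21 and promoters from RefSeq. Protein sequences were not used here. Values of 1 listed gene are not reported here.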

Additional observations from a re-analysis of the deposited data

How the results depend on the processing

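None of the 9 receptor genes passed under pseudocounts of 0.1 or 5 TPM, without the expression filter, at a mean of at least 5 TPM, without the variance trend, with the replicate block, or when any library was left out of the deposited values. The number passing was 3 with median-of-ratios scaling, 3 with quantile normalization and 4 after rescaling to nuclear protein-coding genes. It was 0 with the replicate block and median-of-ratios scaling, and 1, 2, 0, 0, 0 and 0 under that scaling on omitting uninduced replicates 1 to 3 and then induced replicates 1 to 3; these settings were chosen after seeing the data. Of all tested genes, 1549 passed (174 higher, 1375 lower). The total was 752 without the filter, 814 with median-of-ratios scaling (382 and 432), 814 with quantile normalization (374 and 440), 886 after rescaling to nuclear protein-coding genes (435 and 451), 767 without the variance trend, 902 with the replicate block and 456 with the block and median-of-ratios scaling. Leaving out a library gave 611 to 1276, and under median-of-ratios scaling, in the same order, 472, 462, 349, 360, 331 and 335. Same-numbered libraries are tied only by number, and their deviations from the group means correlated at -0.015 to 0.021 over genes.

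Changes of sign occurred in 3 genes without a call. Csf2ra (-0.16) became 0.21 under median-of-ratios scaling, with or without the replicate block, 0.26 after rescaling to nuclear protein-coding genes and 0.21 with quantile normalization; omitting single libraries gave -0.42 to 0.027 (under median-of-ratios scaling, in the order above, 0.38, 0.23, 0.018, 0.10, 0.30 and 0.25). Ifnar1 (-0.25) became 0.13, 0.17 and 0.13, and likewise 0.0058, 0.14, 0.22, 0.29, -0.037 and 0.14. Il2rg (-0.37) became 0.019, 0.056 and 0.036, and likewise 0.011, -0.057, 0.093, 0.074, -0.14 and 0.12. On the deposited scale Ifnar1 ran from -0.37 to -0.10 and Il2rg from -0.48 to -0.31 on such omissions. By construction, median-of-ratios scaling moves every gene of the induced group upward relative to deposited TPM (the median of all genes from -0.35 to -0.0029), and the changes of sign under that scaling follow from that common shift. Rescaling to nuclear protein-coding genes likewise applies a single factor to each library. Quantile normalization does not, and the source of its changes of sign was not tested. The replicate block ended the calls of Bcl3 (adjusted p 0.0552) and Kit (0.0643) on deposited TPM, and with median-of-ratios scaling those of Il17ra (0.0629) and Myc (0.0575). The summed level of the Csf2rb pair differed by 0.68 to 0.93 on omitting single libraries. Depth is unknown, so limits of detection cannot be given.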
